A study of Bos taurus with 8 samples.

Results

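Most mitochondrial proteins are made in the cytosol and carried into the organelle by translocases of the outer membrane (TOM) and inner membrane (TIM), and they are then trimmed, folded and, where damaged, degraded inside. The genes described here encode that machinery. They were taken as every probe whose annotated symbol begins with TOMM or TIMM followed by a digit, or is one of SAMM50, MTX1, MTX2, PMPCA, PMPCB, OXA1L, HSPA9, HSPD1, HSPE1, TRAP1, GRPEL1, GRPEL2, CLPP, CLPX, LONP1, PHB and PHB2. This gave 38 of the 15229 genes named on the array, measured by 58 of its 43795 probes, chosen by name and not by any measured value. In the early embryo the mitochondria come from the oocyte, and their respiratory activity rises as the blastocyst forms and pumps fluid into its cavity.

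The study set expanded bovine blastocysts grown in the donor (in vivo) beside those made in culture (in vitro), with RNA of both on each of 8 two-colour arrays. In vivo embryos came from Holstein donors whose follicles larger than 8 mm were removed, and which then received 400 mg of follicle-stimulating hormone (FSH) in 8 injections falling from 60 to 20 mg and 500 µg of a prostaglandin F2α analogue with each of the last 2 injections. The donors were inseminated 12 and 24 h after oestrus, and embryos were flushed from the uterus at 7.5 days (day 7 in the sample entries). In vitro embryos came from oocytes of 2 to 6 mm follicles that were matured, fertilized and cultured, and they were collected 168 h after fertilization. Both kinds of embryo were sired with the same pooled semen. The source name calls the in vitro embryos products of ovum pick-up (OPU), whereas the treatment text names slaughterhouse ovaries. How many embryos made up a replicate is not stated in the labels. Hormone treatment, donor and age at collection go wholly with in vivo or in vitro origin and cannot be told apart from it.

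The labels give 4 biological replicates of in vivo and of in vitro embryos, paired by number, with each pair present on slide 58 (in vitro in Cy5) and again on slide 61 (in vivo in Cy5). The 2 arrays of a pair were averaged as 1 replicate. Log2 ratios below compare in vitro with in vivo and are positive where in vitro is higher, as mean ± SE from limma over 4 replicates. A probe was called when its adjusted p from limma, taken over all 24775 probes tested, was under 0.05. Per array, the median intensity was 87.3 to 187 (Cy5) and 110 to 267 (Cy3). The trophectoderm markers (8 of 8 genes), inner cell mass markers (4 of 4) and 3 of 4 primitive endoderm markers on the array were bright enough to test. Their summed log2 levels per array were 15.5 to 16.4 in vitro and 16.5 to 16.7 in vivo for trophectoderm, 12.1 to 12.8 and 13.5 to 14.1 for inner cell mass, and 13.9 to 14.2 and 14.6 to 15.3 for primitive endoderm. Not all went the same way: of the trophectoderm probes 4 were called lower and 1, for TFAP2C, was called higher in vitro (0.67 ± 0.10, limma adjusted p = 0.0165). In whole embryos fewer cells of a type and less RNA per cell cannot be told apart. Summed markers overlapped for oocytes (9.70 to 9.89 in vitro and 9.66 to 9.81 in vivo) and cumulus (9.76 to 9.97 and 9.82 to 10.1). They also overlapped for blood (9.20 to 10.2 and 9.33 to 9.97) and oviduct or uterus (8.22 to 8.66 and 8.48 to 8.88). Many probes of these lists were dim, so the sums hold much background, and their overlap cannot show equal amounts of such cells. Sums of the sperm markers did not overlap (8.73 to 9.07 and 9.35 to 9.91). Of 4 sperm genes on the array only TNP1 was bright enough to test, at -1.63 ± 0.14 (limma adjusted p = 0.00727). The untested ones had mean log2 ratios of 0.01 to 0.30. Of 5 oocyte genes on the array 3 were bright enough to test (BMP15, ZP3 and ZP4), with 0 probes called. Only the oocyte factor GDF9 was above background on no array. The part of these cell type markers in the results below was not tested.

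Replicate 2 stood apart before any gene was considered: across all tested probes r was 0.39 to 0.46 between replicate 2 and the rest, and 0.80 to 0.82 within replicates 1, 3 and 4. Values are therefore given for each replicate, and calls also without replicate 2. It was picked out from these same data, so calls made without replicate 2 are not separate support.

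Of the 58 probes, 48 were bright enough to test, for 36 of the 38 genes. Among these, 5 were higher in vitro and 5 were lower, each a different gene. That is 20.8% of the probes tested, a share near the 18.3% of all tested probes with a gene symbol (8.49% higher and 9.81% lower) and the 15.8% of all tested probes. The median log2 ratio was -0.04 and the range was -0.84 to 1.11, against a median of -0.01 over all tested probes with a symbol. The higher genes were TIMM9, MTX2, PMPCB, CLPX and TOMM5, and the lower genes were OXA1L, TRAP1, LONP1, HSPA9 and TOMM7. Every one of the 10 had a single direction on all 8 arrays. The calls were made from these same arrays, so this is not separate support, and it was not counted over all called probes. Among the 48 probes 17 had 1 sign in all 4 replicates (35.4%), beside 40.4% of all tested probes with a symbol.

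**Figure D1:**
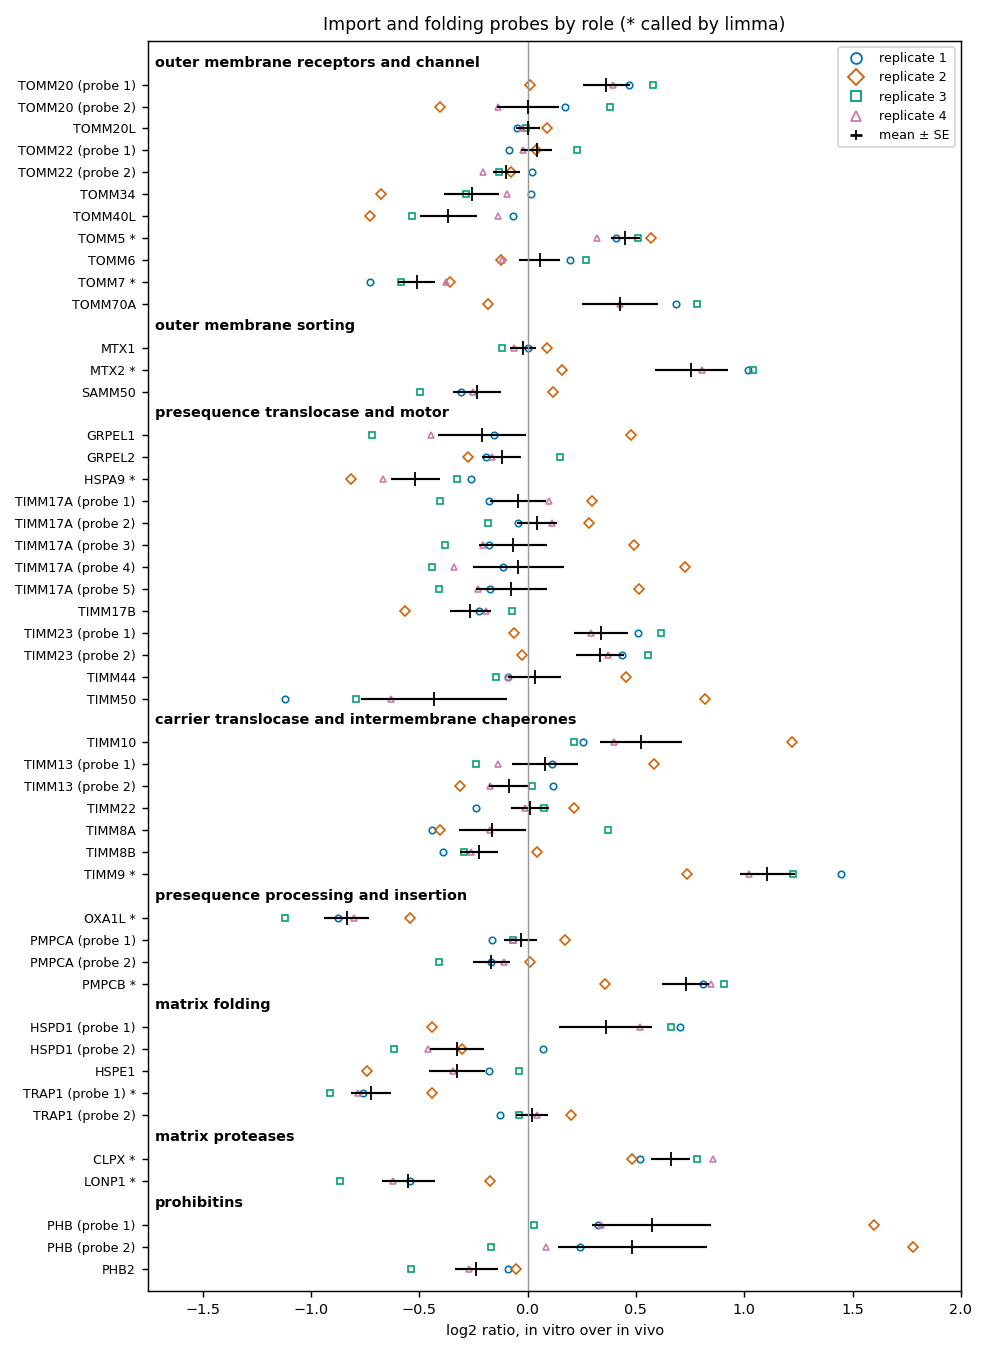
Log2 ratio, in vitro over in vivo, of the 48 tested import and folding probes grouped by role; coloured symbols are replicates 1 to 4, black bars the mean ± SE from limma, and an asterisk marks a call. The 5 higher and 5 lower probes lie in 7 of 8 role groups on either side of 0, and the orange diamonds of replicate 2 often lie away from the other replicates, as for PHB and TIMM50.

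In the outer membrane, proteins are recognised by the receptors TOMM20, TOMM22 and TOMM70, pass through the channel TOMM40, and the small subunits TOMM5, TOMM6 and TOMM7 tune how the complex is assembled. The small subunits went different ways. TOMM5 gave log2 ratios of 0.41, 0.57, 0.51 and 0.32 in replicates 1 to 4. Every replicate was above 0, and the mean of 0.45 ± 0.07, or 1.37-fold, was called (limma adjusted p = 0.0162). TOMM7, which in human cells also helps hold the kinase PINK1 at the outer membrane, gave -0.73, -0.36, -0.58 and -0.38. It was lower in vitro in every replicate, at -0.51 ± 0.09 (limma adjusted p = 0.0212). Within each replicate TOMM5 exceeded TOMM7, by 0.96 ± 0.20 on the log2 scale (SD, n = 4), and TOMM6 lay between at 0.06 ± 0.09. With 4 replicates an exact two-sided sign-flip permutation test cannot go below p = 0.125, the value found for this difference.

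None of the receptor probes was called over all 4 replicates. TOMM70A (now TOMM70), the receptor that takes carrier proteins from cytosolic chaperones, gave 0.68, -0.18, 0.78 and 0.43, so that replicate 2 alone was below 0, and its mean of 0.43 ± 0.17 was not called (limma adjusted p = 0.187). Without replicate 2 it was higher in vitro, at 0.63 ± 0.08 (limma adjusted p = 0.0121). TOMM20, the presequence receptor, has 2 probes, at 0.36 ± 0.11 and 0.00 ± 0.14, neither called, and the first was called higher without replicate 2 (0.48 ± 0.06). Over all 4 replicates that first probe gave 0.75 on slide 58 and -0.02 on slide 61. TOMM22, the central receptor, gave 0.04 ± 0.07 and -0.10 ± 0.06 by its 2 probes, and TOMM20L, a paralogue of TOMM20, gave 0.00 ± 0.06. The channel gene TOMM40 had 1 probe, above background on 6 of 8 arrays in vitro and 5 of 8 in vivo, and was not tested. Its paralogue TOMM40L gave -0.37 ± 0.13 (limma adjusted p = 0.141), and TOMM34, a cytosolic co-chaperone that hands precursors to the TOM complex, gave -0.26 ± 0.13 by its tested probe.

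Beta-barrel proteins of the outer membrane are inserted by the sorting and assembly machinery, whose core is SAMM50 and whose companions are the metaxins MTX1 and MTX2. MTX2 gave 1.02, 0.16, 1.04 and 0.80. Replicate 2 was the lowest and the other 3 lay close together, and the mean of 0.76 ± 0.17, or 1.69-fold, was called (limma adjusted p = 0.0432). MTX1 gave -0.02 ± 0.06 by its tested probe and SAMM50 -0.23 ± 0.11 (limma adjusted p = 0.247). SAMM50 was called lower without replicate 2, at -0.35 ± 0.07 (limma adjusted p = 0.0264). MTX2 exceeded its partner MTX1 by 0.78 ± 0.49 (SD, n = 4), in 4 of 4 replicates.

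Proteins with a cleavable presequence cross the inner membrane through TIMM23 and TIMM17, received by TIMM50 and pulled in by a motor in which TIMM44 anchors HSPA9, the mitochondrial HSP70, and GRPEL1 and GRPEL2 release its nucleotide. Of 13 tested probes in this group, for 8 genes, 1 was called (7.69%, beside 18.3% of all tested probes with a symbol). HSPA9 gave -0.26, -0.82, -0.33 and -0.67, lower in vitro in all 4 replicates, at -0.52 ± 0.11 or 1.43-fold lower (limma adjusted p = 0.0435). GRPEL1 gave -0.21 ± 0.21 and GRPEL2 -0.12 ± 0.09, and TIMM44 gave 0.03 ± 0.12. GRPEL1 was above 0 in replicate 2 (0.48) and below 0 in the others, and its mean without replicate 2 was -0.44 ± 0.12 (limma adjusted p = 0.0618).

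TIMM23 was measured by 2 probes with like values. The first gave 0.51, -0.06, 0.62 and 0.29, and the second 0.43, -0.03, 0.55 and 0.37. Replicate 2 lay near 0 in each and the other replicates were above it, and neither mean was called, at 0.34 ± 0.13 and 0.33 ± 0.11 (limma adjusted p = 0.153 and 0.115). Without replicate 2 TIMM23 was called higher by both probes, at 0.47 ± 0.08 and 0.45 ± 0.06. TIMM17A, its channel partner, has 5 probes, all between -0.07 and 0.04 and none called. Every TIMM17A probe was above 0 in replicate 2, at 0.28 to 0.73, and below 0 in replicate 3. Without replicate 2 TIMM17A was called lower by 2 of the 5 probes, at -0.25 ± 0.06 and -0.27 ± 0.07. In replicates 1, 3 and 4 the first of these gave -0.73, -0.98 and -0.82 on slide 58. On slide 61 it gave 0.37, 0.22 and 0.41, so its call averages opposite signs. The second was below 0 on both slides in those replicates. TIMM17B, the other TIMM17 form, gave -0.26 ± 0.10 (limma adjusted p = 0.146).

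TIMM50, the receptor of this translocase, gave -1.12, 0.82, -0.79 and -0.63 in the 4 replicates, so that replicates 1, 3 and 4 were lower in vitro and replicate 2 was higher. Its mean of -0.43 ± 0.34 was not called (limma adjusted p = 0.498), and without replicate 2 it was -0.85 ± 0.11 (limma adjusted p = 0.0109).

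Carrier proteins of the inner membrane are escorted across the intermembrane space by ring chaperones, TIMM9 with TIMM10 and TIMM8A with TIMM13, and are inserted by TIMM22. TIMM9 had the largest ratio of all 48 probes. It gave 1.44, 0.73, 1.23 and 1.02, with log2 levels of 10.7 in vitro and 9.59 in vivo. The mean of 1.11 ± 0.13 is 2.15-fold (limma adjusted p = 0.0101), and the means on slides 58 and 61 were 1.05 and 1.17. Its ring partner TIMM10 gave 0.26, 1.22, 0.21 and 0.40. All 4 values were above 0, replicate 2 was the highest, and the mean of 0.52 ± 0.19 was not called (limma adjusted p = 0.144). Without replicate 2 TIMM10 was called higher at 0.29 ± 0.06 (limma adjusted p = 0.0302). TIMM9 exceeded TIMM10 by 0.58 ± 0.75 (SD, n = 4), in 3 of 4 replicates, with replicate 2 the other way (exact permutation p = 0.250).

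The remaining members of this group were not called. TIMM8A, the gene of the human deafness-dystonia syndrome, gave -0.16 ± 0.15, and TIMM13 gave 0.08 ± 0.15 and -0.09 ± 0.09 by its 2 probes. TIMM8B gave -0.23 ± 0.09 (limma adjusted p = 0.169) and was called lower without replicate 2, at -0.31 ± 0.05. TIMM22, the insertion channel, gave 0.01 ± 0.09. TIMM9 and TOMM20L are neighbouring genes in the ARS-UCD2.0 annotation.

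After import, the presequence is cut off by a protease made of PMPCB, the catalytic subunit, and PMPCA, the subunit that binds the presequence. OXA1L then inserts proteins into the inner membrane from the matrix side, above all those made on mitochondrial ribosomes. PMPCB gave 0.81, 0.36, 0.91 and 0.84, with replicate 2 the lowest. Its mean of 0.73 ± 0.11, or 1.66-fold, was called (limma adjusted p = 0.0169), with 0.38 on slide 58 and 1.08 on slide 61. PMPCA gave -0.03 ± 0.07 and -0.17 ± 0.08 by its 2 tested probes, neither called. PMPCB exceeded PMPCA by 0.83 ± 0.39 (SD, n = 4), in 4 of 4 replicates (exact permutation p = 0.125).

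OXA1L had the lowest ratio of the 48. It gave -0.88, -0.54, -1.12 and -0.80, with log2 levels of 12.1 in vitro and 13.0 in vivo. All replicates were lower in vitro, at -0.84 ± 0.10 or 1.78-fold lower (limma adjusted p = 0.0116), and slides 58 and 61 gave -0.82 and -0.85.

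Inside the matrix, imported proteins are folded by the chaperonin HSPD1 (HSP60) with its lid HSPE1 (HSP10) and by TRAP1, the mitochondrial HSP90. TRAP1 gave -0.76, -0.44, -0.91 and -0.79 by its first probe. This probe was lower in vitro in every replicate, at -0.72 ± 0.09 or 1.65-fold lower (limma adjusted p = 0.0121). The second TRAP1 probe gave 0.02 ± 0.07, with -0.55 on slide 58 and 0.59 on slide 61, so the call rests on 1 of 2 probes. HSPD1 also has 2 probes, which disagreed. The first gave 0.70, -0.44, 0.66 and 0.52, with a mean of 0.36 ± 0.22 (limma adjusted p = 0.361). Without replicate 2, the one value below 0, it was called higher at 0.63 ± 0.06 (limma adjusted p = 0.00645). The second HSPD1 probe gave -0.33 ± 0.12, from -1.48 on slide 58 and 0.82 on slide 61. HSPE1, which lies next to HSPD1 in the annotation, gave -0.18, -0.74, -0.04 and -0.34. It was below 0 in all replicates, and its mean of -0.33 ± 0.13 was not called (limma adjusted p = 0.171).

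Damaged matrix proteins are removed by LONP1 and by CLPP, a proteolytic chamber fed by the unfoldase CLPX. CLPX gave 0.52, 0.48, 0.78 and 0.86. All replicates were higher in vitro, and the mean was 0.66 ± 0.09 or 1.58-fold (limma adjusted p = 0.0132). LONP1 gave -0.54, -0.17, -0.87 and -0.62, lower in vitro in all replicates and least so in replicate 2. Its mean was -0.55 ± 0.12 or 1.47-fold lower (limma adjusted p = 0.0434). The log2 levels in vitro were 7.15 for LONP1 and 7.28 for the called TRAP1 probe, both after an added offset of 50, which makes folds of dim probes smaller. The single CLPP probe was above background on 0 of 8 arrays in vitro and 1 of 8 in vivo, so CLPX could not be set beside the peptidase it serves.

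The prohibitins PHB (now PHB1) and PHB2 form rings in the inner membrane that hold proteases and newly made proteins. Their probes were not called, with 0 of 3 at an unadjusted limma p under 0.05, beside 34.4% of all tested probes with a symbol. The first PHB probe gave 0.32, 1.60, 0.03 and 0.34 and the second 0.24, 1.78, -0.17 and 0.08. Replicate 2 was far above the others on both probes. The means were 0.57 ± 0.27 and 0.48 ± 0.34, and 0.23 and 0.05 over replicates 1, 3 and 4. PHB2 gave -0.24 ± 0.10 (limma adjusted p = 0.194). The difference between PHB and PHB2 was 0.77 ± 0.65 (SD, n = 4), above 0 in 4 of 4 replicates, and 0.44 without replicate 2.

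**Figure D2:**
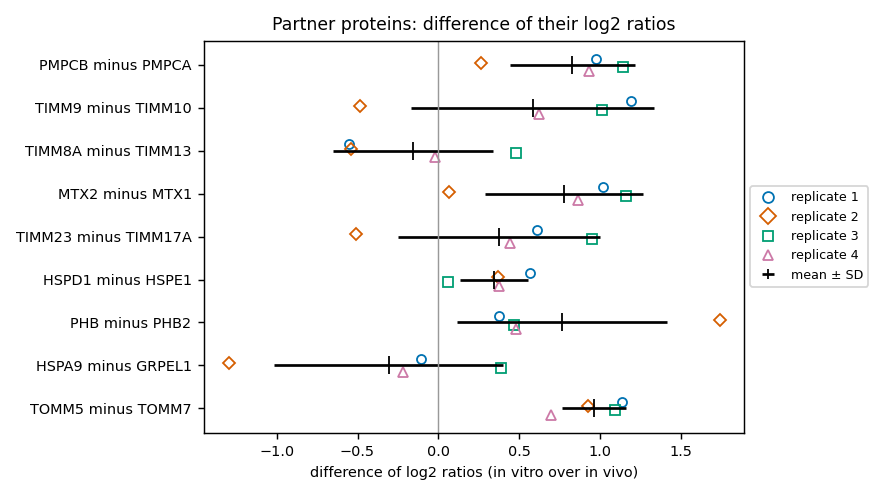
Difference of log2 ratios (in vitro over in vivo) between 9 pairs of genes whose proteins work together, with replicates 1 to 4 as coloured symbols and the mean ± SD as black bars. TOMM5 minus TOMM7 is tightest, at 0.96 ± 0.20, and replicate 2 has the opposite sign to the others for TIMM9 minus TIMM10 and TIMM23 minus TIMM17A.

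Over the 9 pairs, chosen for working together in 1 complex or reaction, 5 had 1 sign in all 4 replicates. These were PMPCB and PMPCA, MTX2 and MTX1, HSPD1 and HSPE1, PHB and PHB2, and TOMM5 and TOMM7. Each had the smallest p this design allows in an exact two-sided permutation test, 0.125, or 0.225 after adjustment over the 9 pairs, so none could pass the threshold. The pairs were not set in the analysis plan, and no such count was made over other pairs of genes. For TOMM5 and TOMM7 the single sign follows from their own replicate values, all above 0 and all below 0, and adds nothing to them. For PMPCB and MTX2 it rests mostly on the called gene, as the partner means were near 0 (-0.10 for PMPCA and -0.02 for MTX1). MTX2 exceeded MTX1 by only 0.07 in replicate 2. Where a gene has several tested probes its value here is their mean, which for HSPD1 joins 2 disagreeing probes. Without replicate 2 the difference moved from 0.58 to 0.94 for TIMM9 and TIMM10, from 0.37 to 0.67 for TIMM23 and TIMM17A, from -0.16 to -0.03 for TIMM8A and TIMM13, and from -0.31 to 0.02 for HSPA9 and GRPEL1.

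Leaving out replicate 2 raised the number of called probes from 10 to 21 of 48, with all 10 kept. The calls were then 11 higher and 10 lower, 43.8% of the tested probes beside 33% of all tested probes with a symbol. The 11 added calls were 6 higher, for TOMM20, TOMM70A, TIMM23 (both probes), TIMM10 and HSPD1, and 5 lower, for SAMM50, TIMM50, TIMM8B and TIMM17A (2 probes). Leaving out another replicate cut the count. Without replicate 1 only TIMM9 of the 48 was called by limma, without replicate 3 only OXA1L, and without replicate 4 none of the 48. Those are 2.08%, 2.08% and 0%, beside 3.35%, 4.08% and 2.19% of all tested probes with a symbol. Without replicate 4, 5 members were higher and 6 lower at an unadjusted limma p under 0.05, a count not made over all probes. The calls of HSPA9, LONP1 and MTX2 were also lost without background correction and with trended, robust eBayes, and those of CLPX, HSPA9, MTX2 and PMPCB with median centring in place of loess. Fitting the 8 arrays with replicate number as a block kept all 10 calls and added TIMM10, TIMM23 (second probe) and TOMM20 (first probe), with limma adjusted p of 0.0345, 0.0383 and 0.0478. The share called was then 27.1%, beside 27.6% of all tested probes with a symbol.

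Ratios also differed between the slides, which hold opposite dye orientations, so that slide and dye cannot be told apart. A slide term fitted over the 8 arrays was called for 29 of the 48 probes (60.4%), beside 66.7% of all tested probes with a symbol. The mean ratio had opposite signs on the 2 slides for 15 of the 48 (31.2%), none of them a called probe. That count was not made over all tested probes, so it cannot be read as a trait of these genes. The median of the 48 probes was -0.13 on slide 58 and 0.03 on slide 61.

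**Figure D3:**
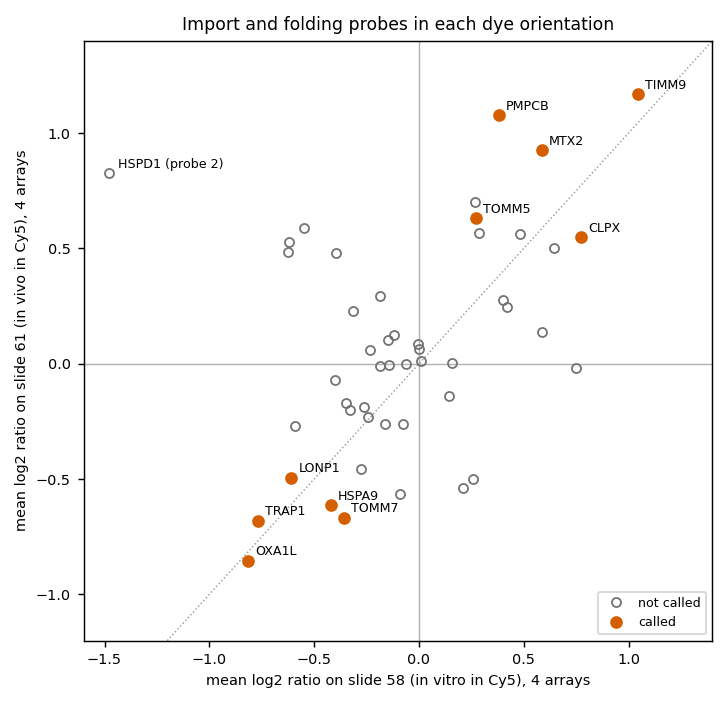
Mean log2 ratio of each tested import and folding probe over the 4 arrays of slide 58 (horizontal axis) and the 4 arrays of slide 61 (vertical axis), with equal values on the dotted line; filled points are called. The 10 called probes, called from these same arrays, lie in the quadrants where both slides have 1 sign. The second HSPD1 probe lies farthest off the line, at -1.48 and 0.82.

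Genes that act with this machinery were described from 3 further lists. Of 23 tested probes for other import genes, 5 were higher and 1 was lower in vitro (26.1% called, beside 18.3% of all tested probes with a symbol), which is 1 gene higher and 1 lower of 15 genes tested. All 5 higher probes belong to DNAJC15, a J-domain protein of the inner membrane related to the motor subunit DNAJC19. The probe with the largest ratio gave 1.03, 1.94, 0.86 and 1.33 in the 4 replicates, at 1.29 ± 0.19, and the other probes gave 1.22 ± 0.17, 0.78 ± 0.09, 0.78 ± 0.09 and 0.78 ± 0.13 (limma adjusted p from 0.0109 to 0.0217). Every DNAJC15 probe was higher in vitro in every replicate. The lower probe was AIFM1, which anchors the intermembrane space import factor CHCHD4, at -0.55 ± 0.07 (limma adjusted p = 0.0112), with -0.48, -0.59, -0.43 and -0.68 in the replicates.

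Of 7 tested probes for other mitochondrial proteases, for 5 genes, 2 were lower and 0 higher (28.6% called, beside 18.3% of all tested probes with a symbol). At an unadjusted limma p under 0.05 there were 3 (42.9%, beside 34.4%). The intermembrane space protease HTRA2 gave -0.38 ± 0.06 (limma adjusted p = 0.0216). The peptidase NLN gave -0.29 ± 0.06 (limma adjusted p = 0.0435), from -0.68 on slide 58 and 0.10 on slide 61. Its adjusted p was 0.218 with the replicate number as a block.

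A list of genes for the folds of the inner membrane (cristae), which also held genes for mitochondrial fusion, had 13 tested probes for 8 genes. Of these probes 0 were called by limma, beside 18.3% of all tested probes with a symbol. At an unadjusted limma p under 0.05 there were 10 (76.9%), beside 34.4%, with several probes sharing a gene. The log2 ratios of this list ran from -0.41 to 0.45, with a median of 0.12.

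**Figure D4:**
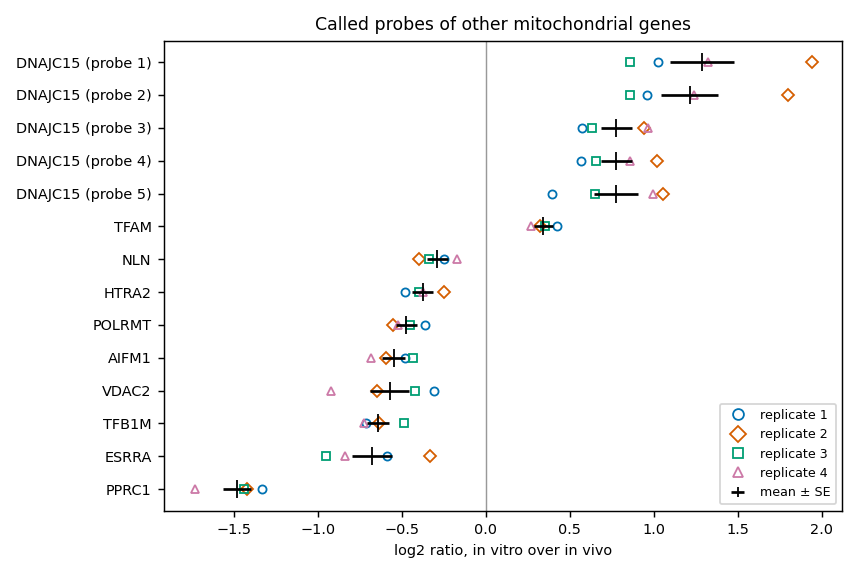
Log2 ratio, in vitro over in vivo, of the 14 called probes from the lists of other mitochondrial genes, with replicates 1 to 4 as coloured symbols and the mean ± SE from limma as black bars. All 5 DNAJC15 probes lie above 0 in every replicate, and PPRC1, a biogenesis coactivator, lies lowest at -1.48.

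**Figure D5:**
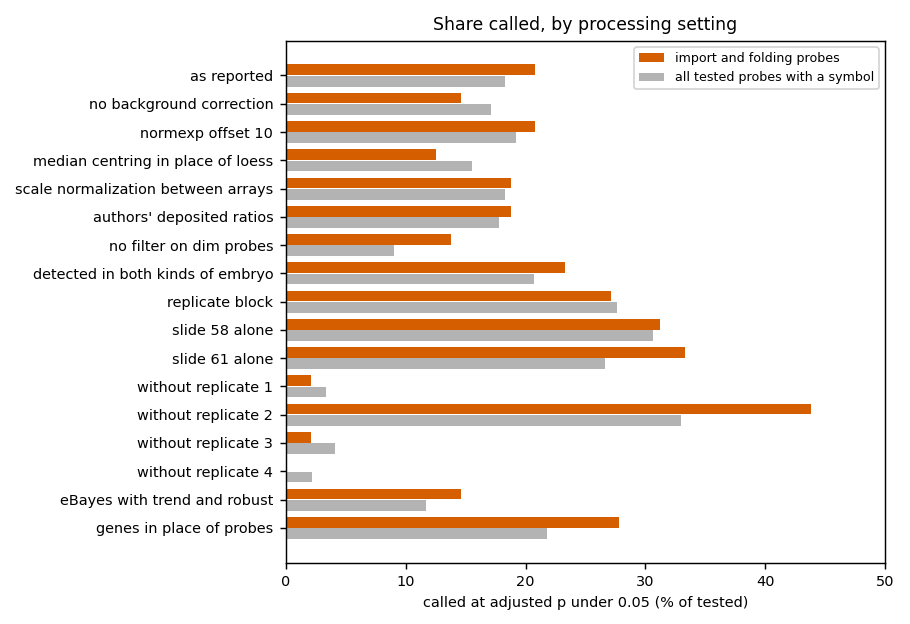
Share of tested probes called at an adjusted p under 0.05 (horizontal axis, % of tested), for import and folding probes (orange bars) and all tested probes with a symbol (grey bars), under each processing setting. The share of import and folding probes ran from 0 without replicate 4 to 43.8% without replicate 2.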

How the data were processed

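The members and gene lists were chosen with earlier results of these data known. Total RNA was amplified and labelled with Cy3 and Cy5, per the labels' protocols. The authors deposited raw spot intensity and local background for each array, per the file headers, and a table of log2 ratios, with the normalization not given in the sources used here. Against the scanner ratios that table correlated at 0.984 to 0.997 once read as in vitro over in vivo, and its column medians were -0.00385 to 0.00131, near 0.

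Background was removed by normexp with an offset of 50, and dyes were balanced by loess within each array, giving control spots no weight. The tools were limma 3.58.1 (R 4.3.3) and, for figures, matplotlib 3.10.9 (Python 3.11.15). A probe was tested when it was brighter than the 95th percentile of 153 negative controls on all 8 arrays for 1 kind of embryo (24775 probes, 56.6%). Same-numbered arrays deviated together (r = 0.703 to 0.894, at most 0.149 with another number), and were averaged as 1 replicate. An intercept was fitted by lmFit and tested two-sided by eBayes (prior df 2.01, from the variances of all tested probes). Adjustment was by Benjamini-Hochberg over those probes. The labels call the replicates biological without naming separate donors or cultures, so p-values measure the spread between these samples. The number of arrays limits the precision.

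Symbols came from the platform annotation: 21790 probes had 1 symbol, 22005 had none and none had several. Of the 38 member symbols 36 are current and 2 are synonyms in ARS-UCD2.0. All members could be named. Replicate values were due for called members with a log2 ratio of at least 0.5 in size and, in a group without one, the probe with the smallest p; those of other members were added after their values were seen. Genes outside the set were named where called, by rule at most 4 a list. POLRMT, TFAM and the markers TFAP2C and TNP1 were named after their values were seen. Scripts were tested on simulated data. Probe sequences were not used here.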

Additional observations from a re-analysis of the deposited data

Results flagged for a closer look

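In 2 of the 48 tested probes, 1 replicate lay far from the other 3 by Dixon's test, which flags about 1 in 20 groups by chance, and in both it was replicate 2. TIMM44 was 0.45 there against a mean of -0.11 in the others, and the first HSPD1 probe was -0.44 there against 0.63. In 7 probes of 6 genes all 4 arrays of one slide lay on the other side of 0 from all 4 of the other slide, with limma adjusted p of the slide term of at most 0.00368. The difference of slide 58 minus slide 61 was -2.30 for the second HSPD1 probe, -1.15 and -0.87 for 2 TIMM17A probes, -1.14 for the second TRAP1 probe, -0.48 for TOMM6, 0.76 for GRPEL2 and 0.28 for TOMM20L. None of these was called between the kinds of embryo, and the same count was not made over all tested probes.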

How the results depend on the processing

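Over 16 alternatives the 10 called members kept their direction in every one. Their calls did not hold throughout: TIMM9 and OXA1L were called in 14 of 16, TRAP1 in 13, CLPX, PMPCB, TOMM5 and TOMM7 in 12, HSPA9 and MTX2 in 9 and LONP1 in 8. With 1 replicate left out, members called ran from 0 to 11 higher and 0 to 10 lower, all probes from 211 to 3300 higher and 276 to 3890 lower, and probes of the other mitochondrial lists from 0 to 15 higher and 1 to 13 lower; the main counts were 5 and 5, 1736 and 2181, and 6 and 8. The high counts are those without replicate 2, and the cause was not tested. A replicate block fitted to the 8 single arrays takes its degrees of freedom from arrays, and with it 8 members were higher and 5 lower, 2678 probes higher in all, and 17 and 13 in the other lists; among members it changed no call beyond the 3 it added. Members called with the block were 27.1%, beside 27.6% of all tested probes with a symbol. Without background correction 3 members were lower, and with median centring 2 were higher. Shares of members called were 14.6% and 12.5% in these 2 settings, beside 17.1% and 15.5% of all tested probes with a symbol. On slide 58 alone 8 members were lower, 3064 and 3855 probes were called in all, 15 of the other lists were higher, and the member median was -0.13. On slide 61 alone 9 members were higher, 3195 probes in all and 10 of the other lists, with a median of 0.034. Shares of members called were 31.2% on slide 58 and 33.3% on slide 61, beside 30.6% and 26.6% of all tested probes with a symbol. With trended, robust eBayes 3 members were lower, 1126 and 1366 probes were called and 5 of the other lists were lower. That setting called 14.6% of members, beside 11.7% of all tested probes with a symbol. Testing genes in place of probes gave 940 and 1285 genes, and 3 higher in the other lists. Values with a call on 1 slide and the opposite sign in the mean were TRAP1 (second probe, -0.55) and TIMM17A (-0.39) on slide 58, and HSPD1 (second probe, 0.82) and TIMM17A (0.53) on slide 61; NLN, called lower in the mean, was 0.10 there. Dim probes such as those for CLPP and TOMM40 limit what can be said of them.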

Other observations

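The list for the mitochondrial genome and biogenesis held changes in both directions, with a median log2 ratio of 0.06. Of 24 tested probes 5 were lower and 1 was higher (25.0%, beside 18.3% of all tested probes with a symbol). PPRC1, a coactivator of nuclear genes for mitochondria related to PGC-1α, gave -1.33, -1.42, -1.44 and -1.73 in the 4 replicates. It was lower in vitro in all of them, at -1.48 ± 0.08 (limma adjusted p = 0.00691), beyond the range of the 48 import and folding probes. The nuclear receptor gene ESRRA, a partner of such coactivators, gave -0.68 ± 0.12 (limma adjusted p = 0.0241). VDAC2, a pore of the outer membrane, gave -0.57 ± 0.12 (limma adjusted p = 0.0351). TFB1M, which methylates mitochondrial ribosomal RNA, was lower by 1 probe at -0.64 ± 0.07 (limma adjusted p = 0.00893), while its other 3 probes gave 0.19 to 0.26 and were not called. The other calls, named after their values were seen, were the mitochondrial RNA polymerase gene POLRMT at -0.47 ± 0.06 and the mitochondrial DNA packaging gene TFAM at 0.34 ± 0.06 (limma adjusted p = 0.0122 and 0.0205).

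Of 7 tested probes for regulators of the mitochondrial stress response 0 were called by limma, and 0 had an unadjusted limma p under 0.05. Over all tested probes with a symbol these shares were 18.3% and 34.4%. The log2 ratios of this list ran from -0.51 to 0.20.

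The 10 untested import probes, for 9 genes, were above background on 0 to 6 of the 8 arrays of either kind, and their mean log2 ratios ran from -0.35 to 0.04.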
